A study of Homo sapiens with 12 samples.

Results

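The BCL2 family decides whether the outer membrane of mitochondria stays intact, and 10 of its genes were followed here by gene symbol among the 36041 genes counted: the anti-apoptotic guardians BCL2, BCL2L1, MCL1 and BCL2A1, the BH3-only genes BCL2L11, BMF, BBC3 and PMAIP1, and the effectors BAX and BAK1. All 10 passed the filter on low counts that left 21438 genes for testing. Poly(A) RNA was sequenced from MV411 and MOLM13, a pair of human acute myeloid leukaemia cell lines whose receptor kinase FLT3 is activated by an internal tandem duplication. The 12 libraries fall into 4 groups of 3, namely MV411 with SGI-7079, MV411 with DMSO, MOLM13 with SGI-7079 and MOLM13 with DMSO. SGI-7079 is a kinase inhibitor studied here for its action on FLT3, given at 10 nM for 24 h, and DMSO is the vehicle, for which no separate duration is stated. The labels call the replicates biosamples without saying that they were grown apart, so p-values measure the spread between these libraries, which may be partly technical.

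Guardian proteins bind and hold back both the BH3-only proteins and the effectors. BH3-only proteins are sensors of stress and of lost growth factor signals that occupy the guardians, and some of them also activate the effectors directly. BAX and BAK1 then form pores that release cytochrome c, which starts the caspase cascade. Acute myeloid leukaemia cells are known for leaning on BCL2 and MCL1, and signalling from mutant FLT3 is known to hold BH3-only genes down and to keep MCL1 up. The data are transcript levels and say nothing of protein.

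Promoter sequences from RefSeq (build GRCh38.p14), covering 250 bases before and 50 after a gene's start, were matched for 9 of the 10 genes. They were searched on both strands for GTAAACA, the motif of forkhead factors such as FOXO3, for its shorter core AAACA, for TTCNNNGAA, the STAT motif, and for CACGTG, the E-box bound by MYC and related factors. Among 35116 promoters of the same length, GTAAACA was found in 3.42%, AAACA in 44.4%, TTCNNNGAA in 7.66% and CACGTG in 7.26%. AAACA lies inside every GTAAACA. Sequences are shown for BMF, the gene with the largest rise in each line, for BCL2L11, the BH3-only gene with the full forkhead motif, for BCL2A1, the gene with the STAT motif, and for BAX, the gene with 4 E-boxes. Each is written 5′ to 3′ along the gene's strand, and capitals mark the motifs.
BMF: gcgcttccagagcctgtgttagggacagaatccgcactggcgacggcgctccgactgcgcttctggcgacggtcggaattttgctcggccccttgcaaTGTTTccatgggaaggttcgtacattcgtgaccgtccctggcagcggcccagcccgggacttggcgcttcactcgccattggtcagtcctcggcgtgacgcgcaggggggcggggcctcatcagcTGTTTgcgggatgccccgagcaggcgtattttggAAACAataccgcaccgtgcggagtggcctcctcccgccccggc
BCL2L11: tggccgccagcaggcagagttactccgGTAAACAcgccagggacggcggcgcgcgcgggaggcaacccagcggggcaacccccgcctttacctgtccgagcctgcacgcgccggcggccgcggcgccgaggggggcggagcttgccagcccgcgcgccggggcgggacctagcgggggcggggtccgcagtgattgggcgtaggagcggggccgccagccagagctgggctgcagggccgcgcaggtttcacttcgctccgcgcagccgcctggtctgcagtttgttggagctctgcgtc
BCL2A1: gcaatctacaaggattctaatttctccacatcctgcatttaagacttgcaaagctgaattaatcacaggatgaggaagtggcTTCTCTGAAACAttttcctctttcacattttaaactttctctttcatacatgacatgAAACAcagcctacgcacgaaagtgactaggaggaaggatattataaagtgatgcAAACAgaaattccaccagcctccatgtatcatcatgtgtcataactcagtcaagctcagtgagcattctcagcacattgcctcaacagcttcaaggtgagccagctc
BAX: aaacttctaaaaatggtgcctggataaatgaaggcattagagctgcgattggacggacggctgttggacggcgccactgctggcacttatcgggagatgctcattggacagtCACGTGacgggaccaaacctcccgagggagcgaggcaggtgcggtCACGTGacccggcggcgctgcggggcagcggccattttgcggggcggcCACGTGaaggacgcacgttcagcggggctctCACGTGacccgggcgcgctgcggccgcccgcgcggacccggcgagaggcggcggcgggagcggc
The BMF window, chr15:40108830-40109129 on the minus strand, held AAACA 3 times, at -152 and -27 on the opposite strand, where it reads TGTTT, and at 8 on the gene's strand, counted from the start. A second RefSeq start of BMF, at chr15:40106917-40107216, held none of the motifs. The BCL2L11 window, chr2:111120664-111120963 on the plus strand, held GTAAACA at -223. The BCL2A1 window, chr15:79971147-79971446 on the minus strand, held TTCNNNGAA at -168, overlapping AAACA at -161, and AAACA again at -111 and -57. The BAX window, chr19:48954625-48954924 on the plus strand, held CACGTG at -138, -93, -45 and -14. A match describes the letters in the window and does not show binding.

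Library totals ran between 52352252 and 61862017 counts. The share of counts from the mitochondrial ribosomal RNA genes was 0.815 to 0.867% in MV411 with SGI-7079, against 0.398 to 0.41% in MV411 with DMSO, and 0.917 to 0.954% in MOLM13 with SGI-7079, against 0.516 to 0.544% in MOLM13 with DMSO. The summed level of 10 myeloid markers was also higher with SGI-7079, at 3080 to 3170 CPM (counts scaled to a fixed library total) against 2710 to 2810 CPM with DMSO in MV411, and at 1820 to 1870 CPM against 1410 to 1420 CPM in MOLM13. Of these markers 6 rose and 2 fell in MV411, and 5 rose and 2 fell in MOLM13, where 27.2% of all genes tested rose and 24.3% fell in MV411 and 23.2% rose and 23.6% fell in MOLM13. Markers of the labelled lineage were present, with CD33 at 4169 to 9965 counts and LYZ at 22235 to 109559 counts per library, although the monocyte marker CD14 had 4 to 24 counts. The T-cell marker CD3D did not exceed 0.669 CPM, and CD3E, CD3G and CD2 were absent from the genes counted. Summed B-cell markers had 2.33 to 3.21 CPM in MV411 with SGI-7079 against 2.89 to 3.61 CPM with DMSO. In MOLM13 they had 7.37 to 10.3 CPM with SGI-7079 against 15.0 to 16.3 CPM with DMSO. MS4A1 was absent from the genes counted. Summed megakaryocyte markers had 24.7 to 27.9 CPM in MV411 with SGI-7079 against 11.0 to 12.5 CPM with DMSO. In MOLM13 they had 0.622 to 1.21 CPM with SGI-7079 against 1.81 to 2.23 CPM with DMSO. PF4 and PPBP were absent from the genes counted. Summed epithelial markers had 5.32 to 7.0 CPM in MV411 with SGI-7079 against 1.91 to 2.64 CPM with DMSO. In MOLM13 they had 4.48 to 5.55 CPM with SGI-7079 against 2.47 to 2.73 CPM with DMSO. KRT19 and CDH1 were absent from the genes counted. Summed erythroid markers did not exceed 0.884 CPM, and summed fibroblast markers did not exceed 2.16 CPM. The part of these differences in the results that follow was not tested. In bulk RNA, fewer cells that carry a transcript and less of it per cell cannot be told apart.

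With SGI-7079, the BH3-only gene BMF rose in both lines, and of the 10 genes it had the largest rise in each. In MV411, 1 of the 10 genes rose (BMF), 7 fell (BCL2, MCL1, BCL2A1, BCL2L11, PMAIP1, BAX and BAK1), and BCL2L1 and BBC3 did not pass the test. Among all genes tested in MV411, 27.2% rose and 24.3% fell, 51.5% together. In MOLM13, 2 rose (BMF and BBC3), 4 fell (MCL1, BCL2L1, PMAIP1 and BAK1), and BCL2, BCL2A1, BCL2L11 and BAX did not pass, where 23.2% of all genes rose and 23.6% fell, 46.8% together. A call means an adjusted p under 0.05 in edgeR's quasi-likelihood test with Benjamini-Hochberg adjustment over all genes tested. The median log2 fold change of the 10 genes was -0.33 in MV411, against 0.114 over all genes, and -0.11 in MOLM13, against 0.054 over all genes. Changes past 1 on the log2 scale were seen for BMF and BCL2A1 in MV411 and for BMF in MOLM13, where 17.1% and 12.4% of all genes passed both the test and that size. The shares of family genes called, 8 of 10 in MV411 and 6 of 10 in MOLM13, stand against backgrounds in which about as many genes moved as stayed. The direction of the background depends on the processing: of all genes called, 52.8% rose in MV411 and 49.6% in MOLM13. Under upper-quartile scaling in edgeR the shares were 60.3% and 60.2%, and in limma on log2(FPKM + 1) 63.0% and 57.9%. Without the filter they were 47.8% and 49.3%, and with the third MV411 DMSO library as base for TMM 47.3% and 50.2%. Upper-quartile scaling and that limma fit gave 6 and 5 falls of family genes in MV411 in place of 7. With 1 library left out and scaling recomputed, 7 to 8 fell there. Values given without a library left that library out of edgeR's fit with the genes tested and the scaling factors kept, a choice made after seeing the data.

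**Figure D1:**
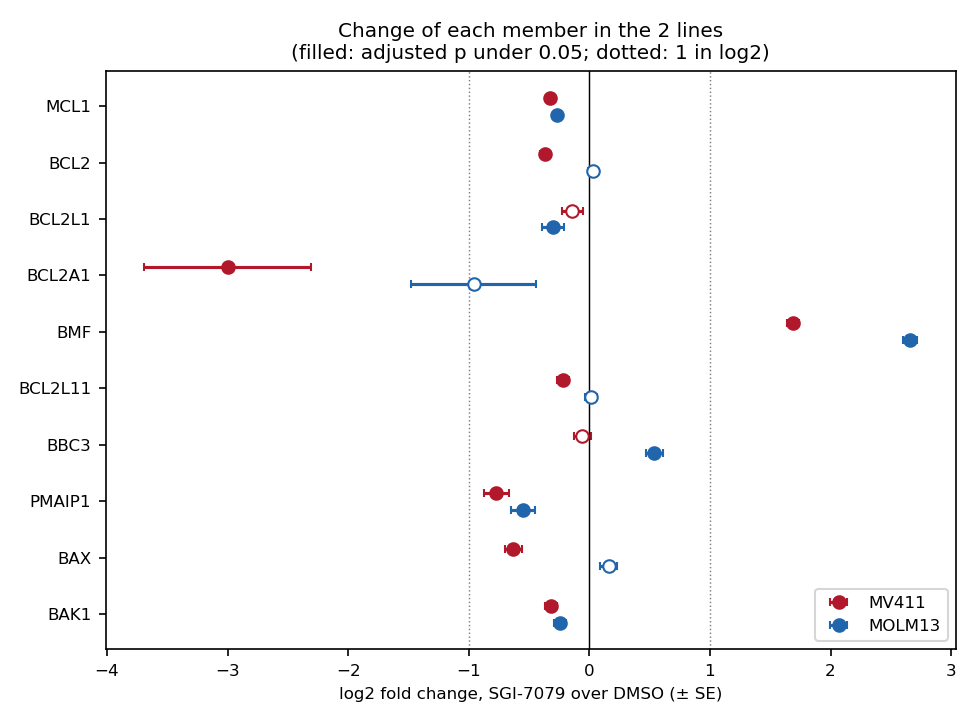
Log2 fold change of SGI-7079 against DMSO for each of the 10 genes (horizontal axis), with bars of 1 SE, in MV411 and MOLM13. Filled points passed the test. BMF lies at 1.69 in MV411 and 2.66 in MOLM13, and BCL2A1, with few counts, has the widest bars.

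BMF encodes a BH3-only protein known for its tie to the actin and myosin motor cytoskeleton. The gene (ENSG00000104081) lies at chr15:40087890-40108879 on the minus strand of hg38. It had 224, 212 and 208 CPM in MV411 with SGI-7079, against 63.3, 66.4 and 69.5 CPM with DMSO. In MOLM13 it had 96.3, 99.5 and 98.1 CPM with SGI-7079, against 15.5, 14.2 and 16.8 CPM with DMSO. The groups did not overlap in either line, and every MV411 DMSO library lay below every MOLM13 SGI-7079 library. The rise was 3.23-fold in MV411 (95% interval 3.01 to 3.47, log2 1.69 ± 0.05 SE, adjusted p = 9.82e-12, n = 3 per group in edgeR's test). In MOLM13 it was 6.32-fold (5.84 to 6.83, log2 2.66 ± 0.06, adjusted p = 1.67e-12). Among 11224 genes averaging at least 5 CPM, 148 genes (1.3%), BMF included, rose at least as much in MV411 and 24 genes (0.21%) did so in MOLM13. The antisense gene BMF-AS1, which was not analysed here, overlaps 8.5% of the exonic bases of BMF on the opposite strand.

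BCL2L11 encodes BIM, a BH3-only protein that binds every guardian and can activate BAX and BAK1. The gene (ENSG00000153094) lies at chr2:111119378-111168444 on the plus strand. It had 47.5, 44.5 and 42.7 CPM in MV411 with SGI-7079, against 51.1, 52.1 and 53.2 CPM with DMSO, and the groups did not overlap. The fall was small, at log2 -0.22 ± 0.05 (adjusted p = 0.00235, edgeR), and under upper-quartile scaling it was -0.12 with an adjusted p of 0.054. In limma on FPKM it was -0.09 with a pseudocount of 1 (adjusted p = 0.0748) and -0.11 with 0.1 (adjusted p = 0.0674). In MOLM13 it had 100, 90.3 and 99.0 CPM with SGI-7079, against 97.9, 97.5 and 92.0 CPM with DMSO. These groups overlapped, and the change was 0.01 ± 0.05 (95% interval -0.08 to 0.11, adjusted p = 0.891). The long non-coding gene MIR4435-2HG overlaps 10.8% of the exonic bases of BCL2L11 on the opposite strand, with 509 to 1340 counts per library against 2415 to 5725 for BCL2L11, and the sources used here do not say whether counting used the strand.

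BBC3 encodes PUMA, a BH3-only protein known as a target of p53 and of FOXO3. The gene (ENSG00000105327) lies at chr19:47220822-47232766 on the minus strand. It had 21.0, 21.3 and 20.8 CPM in MOLM13 with SGI-7079, against 15.0, 14.0 and 14.5 CPM with DMSO. The MOLM13 groups stood apart, with a 1.45-fold rise (log2 0.54 ± 0.07, adjusted p = 2.7e-05, edgeR). In MV411 it had 19.2, 17.0 and 17.8 CPM with SGI-7079, against 18.1, 18.6 and 19.6 CPM with DMSO. There the groups overlapped and the change was -0.06 ± 0.07 (95% interval -0.19 to 0.08, adjusted p = 0.545, edgeR). The sign turned under 3 other settings. When each library was left out in turn, the change ran between -0.11 and -0.02 with scaling kept, and between -0.18 and -0.02 with scaling recomputed.

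PMAIP1 encodes NOXA, a BH3-only protein known for binding MCL1 and BCL2A1. The gene (ENSG00000141682) lies at chr18:59899996-59904305 on the plus strand. It had 9.52, 10.0 and 9.66 CPM in MV411 with SGI-7079, against 17.5, 15.4 and 17.0 CPM with DMSO. MOLM13 had 16.4, 18.0 and 16.3 CPM with SGI-7079, against 28.1, 24.9 and 21.5 CPM with DMSO. All treated libraries lay below all DMSO libraries of their line, and the DMSO libraries of MOLM13 were the most spread. The fall was log2 -0.77 ± 0.10 in MV411 (adjusted p = 1.52e-05) and -0.55 ± 0.10 in MOLM13 (adjusted p = 0.000318, both edgeR). PMAIP1 was thus lower with SGI-7079 in the same libraries in which BMF was higher.

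**Figure D2:**
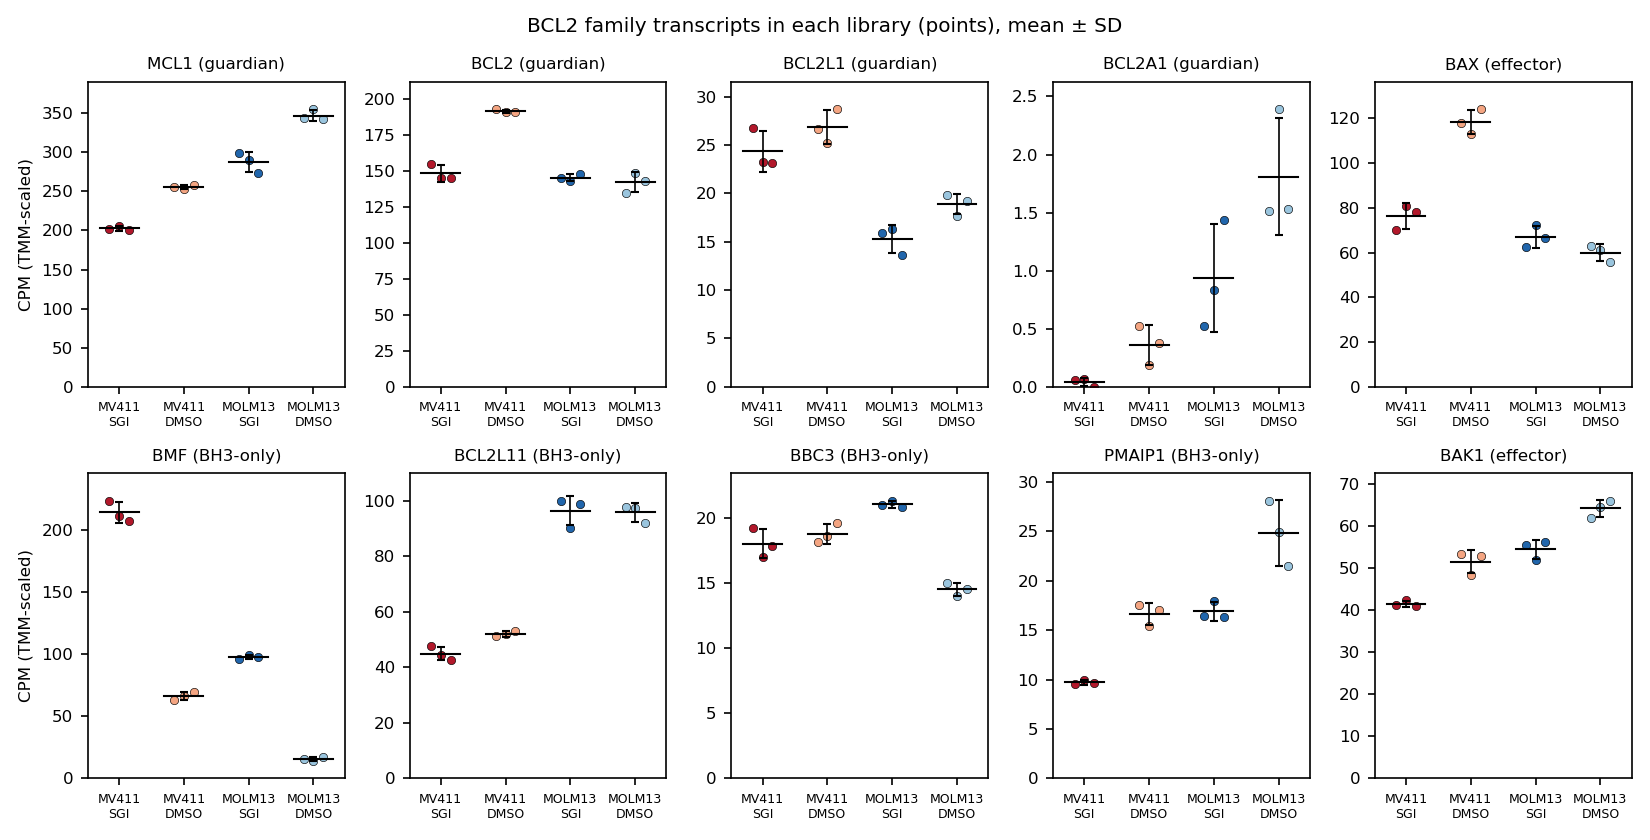
TMM-scaled CPM of each of the 10 genes by group, on linear axes that start at 0 and differ between genes, with a point for each library and lines for the mean ± SD. BMF separates all 4 groups, at 208 to 224, 63.3 to 69.5, 96.3 to 99.5 and 14.2 to 16.8 CPM in MV411 SGI-7079, MV411 DMSO, MOLM13 SGI-7079 and MOLM13 DMSO.

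Per unit length, BMF held a larger share of the transcripts of the 4 BH3-only genes followed here with SGI-7079 than with DMSO in both lines. It was the most abundant of the 4 in both MV411 groups and in MOLM13 with SGI-7079. Levels of different genes are compared here in the authors' FPKM, fragments per kilobase of gene, scaled to the library's total. FPKM carry no TMM factors, which on the log2 scale were higher with SGI-7079 by 0.111 in MV411 and 0.086 in MOLM13. Sums with SGI-7079 therefore stand somewhat higher against DMSO than in TMM-scaled CPM, while shares and ratios within a library are unaffected. Summed over the 4 BH3-only genes, the level was 55.7 ± 1.59 FPKM in MV411 with SGI-7079, against 30.6 ± 0.696 FPKM with DMSO (SD, n = 3 each). In MOLM13 the sum was 42.7 ± 0.285 FPKM with SGI-7079, against 28.2 ± 1.47 FPKM with DMSO. BMF made up 70.5 ± 0.118% of that sum in MV411 with SGI-7079, against 36.8 ± 1.01% with DMSO, and 39.0 ± 0.634% in MOLM13 with SGI-7079, against 8.77 ± 1.12% with DMSO. The treated and DMSO libraries did not overlap in any of these values. The sum leaves out other BH3-only genes. BID averaged 86.5 CPM in MV411 with SGI-7079, against 91.7 CPM with DMSO, and 90.9 CPM in MOLM13, against 100 CPM. BID did not pass the test in MV411 and fell in MOLM13. BIK averaged 18.0 against 14.0 CPM in MV411, where it rose, and 19.9 against 22.7 CPM in MOLM13, where it did not pass. The FPKM ratio of BMF to BCL2L11 was 6.14 ± 0.0992 in MV411 with SGI-7079, against 1.63 ± 0.0446 with DMSO, and 1.31 ± 0.0946 in MOLM13 with SGI-7079, against 0.207 ± 0.0246 with DMSO. BCL2L11 was therefore above BMF only in the MOLM13 DMSO group among these 4 groups. The PMAIP1 share moved the other way, at 7.95 ± 0.452% in MV411 with SGI-7079, against 22.9 ± 1.47% with DMSO, and 16.8 ± 0.96% in MOLM13 with SGI-7079, against 34.9 ± 2.62% with DMSO.

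**Figure D3:**
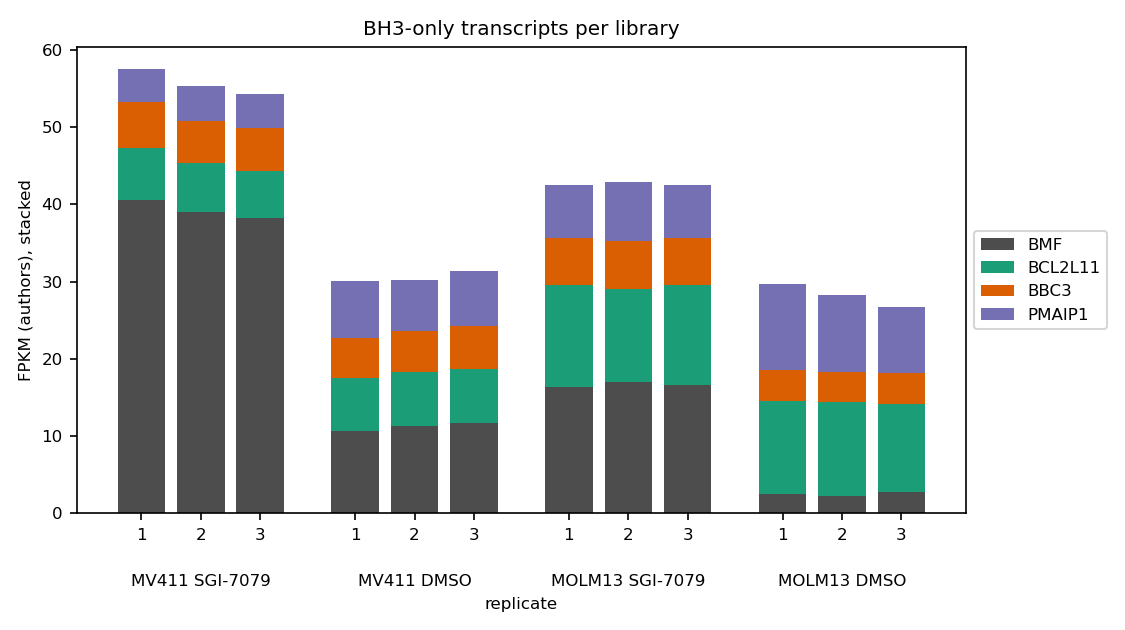
Stacked FPKM of BMF, BCL2L11, BBC3 and PMAIP1 in each library (vertical axis), with the 3 replicates of each group side by side. The BMF segment averages 39.3 FPKM in MV411 SGI-7079, 11.3 in MV411 DMSO, 16.6 in MOLM13 SGI-7079 and 2.47 in MOLM13 DMSO.

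MCL1 encodes a short-lived guardian that holds BIM, NOXA and BAK1. The gene (ENSG00000143384) lies at chr1:150560895-150579610 on the minus strand. It had 202, 206 and 200 CPM in MV411 with SGI-7079, against 255, 253 and 258 CPM with DMSO. MOLM13 had 299, 290 and 273 CPM with SGI-7079, against 344, 355 and 342 CPM with DMSO. The groups did not overlap in either line, and all MV411 libraries lay below all MOLM13 libraries. The fall was log2 -0.33 ± 0.03 in MV411 (adjusted p = 1.69e-06) and -0.27 ± 0.03 in MOLM13 (adjusted p = 1.42e-05, both edgeR).

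BCL2 encodes the founding guardian of the family and the target of the drug venetoclax. The gene (ENSG00000171791) lies at chr18:63123346-63320128 on the minus strand. It had 155, 145 and 145 CPM in MV411 with SGI-7079, against 193, 191 and 191 CPM with DMSO, without overlap. The fall was log2 -0.37 ± 0.04 (adjusted p = 1.97e-06, edgeR). In MOLM13 it had 145, 143 and 148 CPM with SGI-7079, against 135, 149 and 143 CPM with DMSO, so that the groups overlapped. The MOLM13 change was 0.03 ± 0.04 (95% interval -0.05 to 0.10, adjusted p = 0.58, edgeR). It passed edgeR's test under upper-quartile scaling, at 0.13 (adjusted p = 0.0105), and limma's on log2 FPKM, at 0.11 with a pseudocount of 1 (adjusted p = 0.0321) and 0.12 with 0.1 (adjusted p = 0.0324).

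BCL2L1 encodes the guardian BCL-XL, and a short splice form of it, BCL-XS, which gene-level counts do not separate, promotes death. The gene (ENSG00000171552) lies at chr20:31664452-31723989 on the minus strand. It had 15.9, 16.3 and 13.6 CPM in MOLM13 with SGI-7079, against 19.8, 17.7 and 19.2 CPM with DMSO. The fall in MOLM13 was log2 -0.30 ± 0.09 (adjusted p = 0.014, edgeR). In edgeR's test it did not pass without the third MOLM13 SGI-7079 library, at -0.23 (adjusted p = 0.0647), or without the first MOLM13 DMSO library, at -0.27 (adjusted p = 0.0525). Nor did it pass under upper-quartile scaling in edgeR, at -0.20 (adjusted p = 0.0928), or in limma on FPKM, at -0.17 (adjusted p = 0.0628) and -0.21 (adjusted p = 0.0524). In MV411 it had 26.8, 23.2 and 23.1 CPM with SGI-7079, against 26.7, 25.2 and 28.7 CPM with DMSO, and those groups overlapped. The MV411 change was -0.14 ± 0.09 (95% interval -0.32 to 0.03, adjusted p = 0.21, edgeR). With each library left out in turn and the scaling kept, the MV411 change ran between -0.22 and -0.09 and did not pass in any of these 12 fits. With scaling recomputed it passed edgeR's test without the first MV411 SGI-7079 library, at -0.29 (adjusted p = 0.0228). It also passed without the third MOLM13 SGI-7079 library, at -0.21 (adjusted p = 0.0416). The antisense gene ABALON overlaps 41.3% of its exonic bases but had at most 37 counts in a library, against 740 to 1747 for BCL2L1.

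BCL2A1 encodes a guardian of myeloid cells known as a target of NF-kappaB, and it was scarce in both lines. The gene (ENSG00000140379) lies at chr15:79960892-79971196 on the minus strand. It had 4, 4 and 0 counts in MV411 with SGI-7079, against 30, 11 and 23 counts with DMSO. The 0 in replicate 3 allows up to 3 counts, or 0.0531 CPM. MOLM13 had 30, 51 and 78 counts with SGI-7079, against 82, 132 and 87 counts with DMSO. The groups did not overlap in either line, but the counts are too few to fix the size of a change. The fitted fall in MV411 was log2 -3.00 ± 0.69 (adjusted p = 0.00233, edgeR), and in limma on log2(FPKM + 1) it was -0.35 with an adjusted p of 0.0908. The MOLM13 change of -0.96 ± 0.52 did not pass (adjusted p = 0.153), but did so in that limma fit, at -0.49 (adjusted p = 0.0304).

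Among the 4 guardians MCL1 was the most abundant per unit length in all 4 groups. The make-up of the guardian sum moved by far less than that of the 4 BH3-only genes. The guardian sum was 50.0 ± 0.692 FPKM in MV411 with SGI-7079, against 58.2 ± 0.469 FPKM with DMSO. In MOLM13 it was 57.6 ± 1.92 FPKM with SGI-7079, against 63.9 ± 2.08 FPKM with DMSO (SD, n = 3 each). These sums carry no TMM factors, so their falls are somewhat smaller than in TMM-scaled CPM. MCL1 made up 65.0 ± 1.36% in MV411 with SGI-7079, against 65.2 ± 0.4% with DMSO, and 74.2 ± 1.31% in MOLM13 with SGI-7079, against 76.1 ± 0.482% with DMSO. BCL2 made up 23.5 ± 0.535% in MV411 with SGI-7079, against 24.1 ± 0.325% with DMSO, and 18.5 ± 0.864% in MOLM13 with SGI-7079, against 15.4 ± 0.467% with DMSO. The MCL1 and BCL2 shares overlapped between treatments in MV411, whereas in MOLM13 the libraries did not overlap. BCL2L1 held 11.5 ± 0.804% in MV411 with SGI-7079, against 10.1 ± 0.519% with DMSO, and 5.83 ± 0.426% in MOLM13 with SGI-7079, against 6.12 ± 0.487% with DMSO. BCL2A1 stayed under 3.13% of the sum or at that value in each library. The FPKM sums of the 4 BH3-only genes and the 4 guardians were set against each other. Their ratio was 1.11 ± 0.0232 in MV411 with SGI-7079, against 0.526 ± 0.0113 with DMSO. In MOLM13 it was 0.742 ± 0.0226 with SGI-7079, against 0.442 ± 0.0299 with DMSO. Other family genes, such as BID, BIK and the guardian BCL2L2, are in neither sum. BCL2L2 averaged 28.3 CPM in both MV411 groups and 30.3 CPM in both MOLM13 groups. The ratio counts transcripts only, and with canonical transcript lengths it was 0.842 ± 0.018 in MV411 with SGI-7079, against 0.419 ± 0.00942 with DMSO, and 0.596 ± 0.0183 in MOLM13 with SGI-7079, against 0.364 ± 0.0232 with DMSO.

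**Figure D4:**
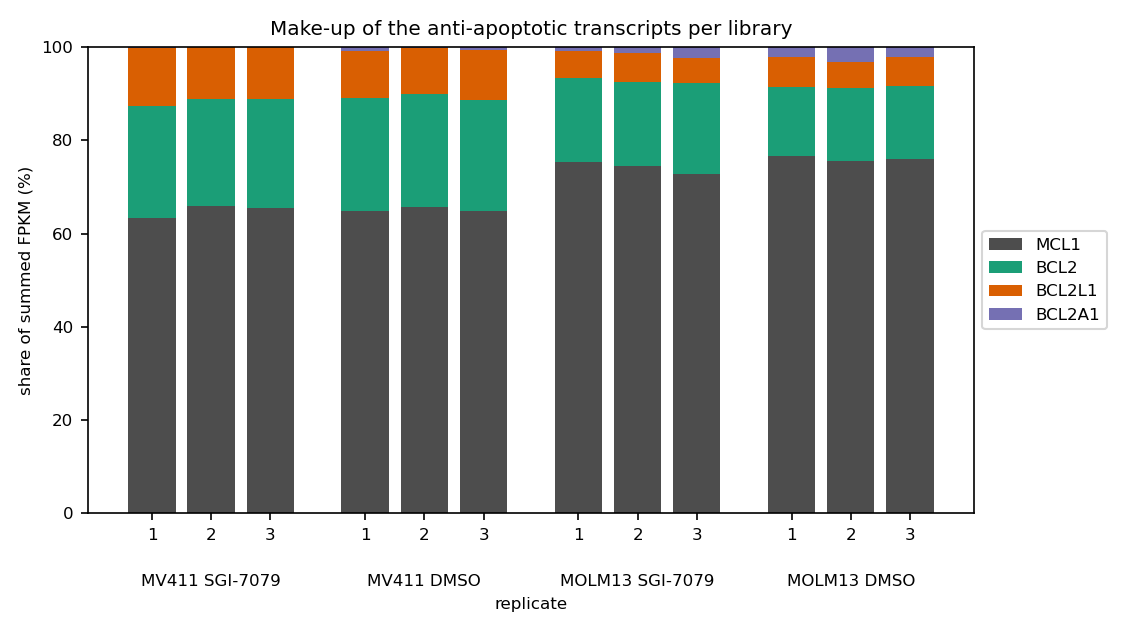
Percent of the summed guardian FPKM held by MCL1, BCL2, BCL2L1 and BCL2A1 in each library (vertical axis), with the 3 replicates of each group side by side. MCL1 forms 65.0%, 65.2%, 74.2% and 76.1% of the mean bar in MV411 SGI-7079, MV411 DMSO, MOLM13 SGI-7079 and MOLM13 DMSO.

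BAX encodes an effector that waits in the cytosol and moves to mitochondria when activated. The gene (ENSG00000087088) lies at chr19:48954815-48961798 on the plus strand. It had 70.0, 80.8 and 78.1 CPM in MV411 with SGI-7079, against 118, 113 and 124 CPM with DMSO. The groups lay far apart, with a fall of log2 -0.63 ± 0.07 (adjusted p = 2.14e-06, edgeR). In MOLM13 it had 62.4, 72.2 and 66.4 CPM with SGI-7079, against 62.9, 61.1 and 55.6 CPM with DMSO. Those groups overlapped, and the change of 0.16 ± 0.07 missed the threshold (adjusted p = 0.0635). It passed in DESeq2's test, at 0.19 (adjusted p = 0.0254), with DESeq2 size factors, at 0.18 (adjusted p = 0.044), under upper-quartile scaling, at 0.27 (adjusted p = 0.00489), and in limma on FPKM, at 0.24 (adjusted p = 0.0154) and 0.25 (adjusted p = 0.0138). It also passed edgeR's test without each of 3 libraries in turn, at 0.20 without the first MOLM13 DMSO library (adjusted p = 0.0492), 0.21 without the first MOLM13 SGI-7079 library (adjusted p = 0.0287) and 0.16 without the first MV411 SGI-7079 library (adjusted p = 0.042).

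BAK1 encodes the effector that sits in the mitochondrial outer membrane at rest. The gene (ENSG00000030110) lies at chr6:33572547-33580293 on the minus strand. It had 41.1, 42.3 and 40.9 CPM in MV411 with SGI-7079, against 53.4, 48.3 and 52.9 CPM with DMSO. MOLM13 had 55.4, 51.9 and 56.2 CPM with SGI-7079, against 61.9, 64.6 and 66.0 CPM with DMSO. The groups did not overlap in either line. The fall was log2 -0.32 ± 0.05 in MV411 (adjusted p = 9.13e-05) and -0.24 ± 0.05 in MOLM13 (adjusted p = 0.00117, both edgeR). The FPKM ratio of BAX to BAK1 was 1.57 ± 0.103 in MV411 with SGI-7079, against 1.96 ± 0.0665 with DMSO, and 1.05 ± 0.12 in MOLM13 with SGI-7079, against 0.798 ± 0.0743 with DMSO, without overlap in either line. The ratio rests on the lengths used, and with canonical transcript lengths it was 5.03 ± 0.33 in MV411 with SGI-7079, against 6.27 ± 0.212 with DMSO, and 3.37 ± 0.383 in MOLM13 with SGI-7079, against 2.55 ± 0.238 with DMSO, so that BAX was then above BAK1 in all 4 groups.

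Ordered by FPKM, BMF stood at place 1 of the 10 genes in MV411 with SGI-7079, against place 5 with DMSO, and at place 4 in MOLM13 with SGI-7079, against place 9 with DMSO. In MV411 with SGI-7079 the order was BMF at 39.3, MCL1 at 32.5, BAX at 29.4, BAK1 at 18.7, BCL2 at 11.7, BCL2L11 at 6.4, BCL2L1 at 5.76, BBC3 at 5.62, PMAIP1 at 4.43 and BCL2A1 at 0.0327 FPKM. Neighbours overlapped there between BCL2L11 and BCL2L1 and between BCL2L1 and BBC3. In MV411 with DMSO it was BAX at 42.2, MCL1 at 37.9, BAK1 at 21.5, BCL2 at 14.0, BMF at 11.3, PMAIP1 at 7.01, BCL2L11 at 6.89, BCL2L1 at 5.9, BBC3 at 5.43 and BCL2A1 at 0.324 FPKM, with overlap between PMAIP1 and BCL2L11 and between BCL2L1 and BBC3. In MOLM13 with SGI-7079 it was MCL1 at 42.7, BAX at 24.0, BAK1 at 22.8, BMF at 16.6, BCL2L11 at 12.8, BCL2 at 10.6, PMAIP1 at 7.15, BBC3 at 6.1, BCL2L1 at 3.36 and BCL2A1 at 0.845 FPKM, with overlap between BAX and BAK1. In MOLM13 with DMSO it was MCL1 at 48.6, BAK1 at 25.3, BAX at 20.1, BCL2L11 at 11.9, PMAIP1 at 9.88, BCL2 at 9.82, BBC3 at 3.96, BCL2L1 at 3.9, BMF at 2.47 and BCL2A1 at 1.57 FPKM, with overlap between PMAIP1 and BCL2 and between BBC3 and BCL2L1. All other neighbours were apart in every library. The place of BMF depends on the gene length used, and with the length of the canonical transcript, an alternative added after seeing the data, it stood at place 3 in MV411 with SGI-7079, after BAX and MCL1, and at place 5 in MOLM13 with SGI-7079. With that length BAX stood at place 1 and MCL1 at place 2 in MV411 with SGI-7079, MV411 with DMSO and MOLM13 with SGI-7079, and in MOLM13 with DMSO BAX moved above BAK1, to place 2.

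Without SGI-7079 the lines already differed in all 10 genes. In MV411 against MOLM13, both with DMSO, 5 genes were higher (BMF, BAX, BCL2L1, BCL2 and BBC3) and 5 were lower (BCL2A1, BCL2L11, PMAIP1, MCL1 and BAK1), where 27.7% of all genes were higher and 26.5% lower, 54.2% together. BMF averaged 66.4 ± 3.14 CPM in MV411 and 15.5 ± 1.32 CPM in MOLM13 (SD, n = 3 each), a 4.28-fold difference (log2 2.10 ± 0.06, adjusted p = 2.58e-12, edgeR). BAX was 1.98-fold higher in MV411 (0.98 ± 0.07, adjusted p = 2.5e-08). The guardians BCL2L1, at 0.51 ± 0.09 (adjusted p = 0.000266), and BCL2, at 0.43 ± 0.04 (adjusted p = 3.9e-07), were higher in MV411, as was BBC3, at 0.37 ± 0.07 (adjusted p = 0.000566). The guardians MCL1, at -0.44 ± 0.03 (adjusted p = 7.99e-08), and BCL2A1, at -2.32 ± 0.55 (adjusted p = 0.00263), were lower in MV411. So were BCL2L11, at -0.88 ± 0.05 (adjusted p = 3.49e-09), PMAIP1, at -0.58 ± 0.10 (adjusted p = 0.000168), and BAK1, at -0.32 ± 0.05 (adjusted p = 7.97e-05). With 1 line on each side, these differences are between MV411 and MOLM13 as such.

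The response to SGI-7079 differed between the lines for 5 of the 10 genes, where 20.7% of all genes differed, 8.85% with the higher and 11.8% with the lower value in MV411. All 5 had the lower value in MV411. The difference, MV411 minus MOLM13 on the log2 scale, was -0.97 ± 0.08 for BMF (adjusted p = 1.6e-06), which rose in both lines, and -0.80 ± 0.09 for BAX (adjusted p = 5.26e-05). It was -0.59 ± 0.10 for BBC3 (adjusted p = 0.000852) and -0.40 ± 0.05 for BCL2 (adjusted p = 0.00016, all edgeR's interaction test). For BCL2L11 it was -0.23 ± 0.07 (adjusted p = 0.0345, edgeR). That difference missed the threshold of edgeR's test in 7 of 12 fits that left out 1 library, at -0.19 without the third MV411 SGI-7079 library (adjusted p = 0.0844), -0.22 without the second (adjusted p = 0.0703), -0.21 without the third MV411 DMSO library (adjusted p = 0.0733) and -0.23 without the second (adjusted p = 0.0558). In MOLM13 it missed at -0.20 without the first SGI-7079 library (adjusted p = 0.0874), -0.21 without the third (adjusted p = 0.0811) and -0.20 without the third DMSO library (adjusted p = 0.0844). The other genes did not pass edgeR's test, with -0.06 ± 0.05 for MCL1 (95% interval -0.15 to 0.04, adjusted p = 0.468), -0.22 ± 0.14 for PMAIP1 (-0.49 to 0.05, adjusted p = 0.324), -0.08 ± 0.07 for BAK1 (adjusted p = 0.493), 0.16 ± 0.13 for BCL2L1 (adjusted p = 0.444) and -2.04 ± 0.86 for BCL2A1 (adjusted p = 0.122). With each library left out in turn and the scaling kept, the BCL2L1 difference ran between 0.09 and 0.21. None of these 5 genes passed in those 12 fits. With scaling recomputed, the BCL2L1 difference reached down to 0.0055. There the differences of MCL1 (-0.18), PMAIP1 (-0.39) and BAK1 (-0.20) passed with 1 library left out. The split of all genes between higher and lower differences depends on the processing. Of the genes called, 42.9% had the higher value in MV411 with the TMM base library used here, a MOLM13 DMSO library. With the third MV411 DMSO library as base the share was 28.7%. Other settings gave 31.0% without the filter and 54.8% in limma on log2(FPKM + 1), which uses no TMM. With that MV411 base the same number of family genes, 5, had the lower value in MV411 and none the higher. The comparisons with DMSO and the comparison of the DMSO groups share control libraries, so their values are not independent. FLT3 itself had a log2 change of 0.36 ± 0.02 in MV411 (adjusted p = 1.78e-08) and 0.93 ± 0.02 in MOLM13 (adjusted p = 7.4e-12).

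The wider pathway was described by 6 lists, whose counts stand against 27.2% of all genes that rose and 24.3% that fell in MV411, and 23.2% that rose and 23.6% that fell in MOLM13. Of 12 other BCL2 family genes tested, 4 rose and 2 fell in MV411, and 3 rose and 2 fell in MOLM13, with medians of -0.02 and 0.03. BCL2L12, an atypical member, fell, with a log2 change of -1.49 ± 0.06 in MV411 and -0.80 ± 0.06 in MOLM13, and BNIP3L, a mitophagy receptor, rose by 0.96 ± 0.08 and 1.33 ± 0.08. BCL2L13, a mitochondrial member also known in mitophagy, rose by 0.26 ± 0.05 in MV411 and 0.25 ± 0.05 in MOLM13. BCL2L10, another guardian, had 62, 66 and 54 counts in MOLM13 with SGI-7079, against 4, 5 and 0 counts with DMSO, and the fitted rise was 4.23 ± 0.47 (adjusted p = 5.56e-06, edgeR). In MV411 it had 227, 209 and 206 counts with SGI-7079, against 93, 97 and 112 counts with DMSO, a rise of 1.05 ± 0.34 (adjusted p = 0.0195, edgeR). Of 13 apoptosome and caspase genes, 4 rose and 7 fell in MV411 and 3 rose and 8 fell in MOLM13, with medians of -0.27 and -0.37. CYCS, which encodes cytochrome c, fell, at -1.21 ± 0.05 in MV411 and -0.82 ± 0.05 in MOLM13, and AIFM1, a flavoprotein of the intermembrane space, also fell, at -0.88 ± 0.04 and -0.53 ± 0.04. CASP2, which encodes a caspase, fell in MV411, at -0.53 ± 0.04, and in MOLM13, at -0.21 ± 0.04. Of 7 inhibitors of apoptosis, 4 rose and 1 fell in each line, with a median of 0.24 in both. BIRC5, survivin, which also serves cell division, fell, at -2.39 ± 0.05 in MV411 and -1.80 ± 0.05 in MOLM13, whereas BIRC3 rose by 1.37 ± 0.16 and 1.29 ± 0.15. NAIP rose by 1.46 ± 0.06 and 0.81 ± 0.07, but it has near-identical copies that counting may split, so its value is uncertain.

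**Figure D5:**
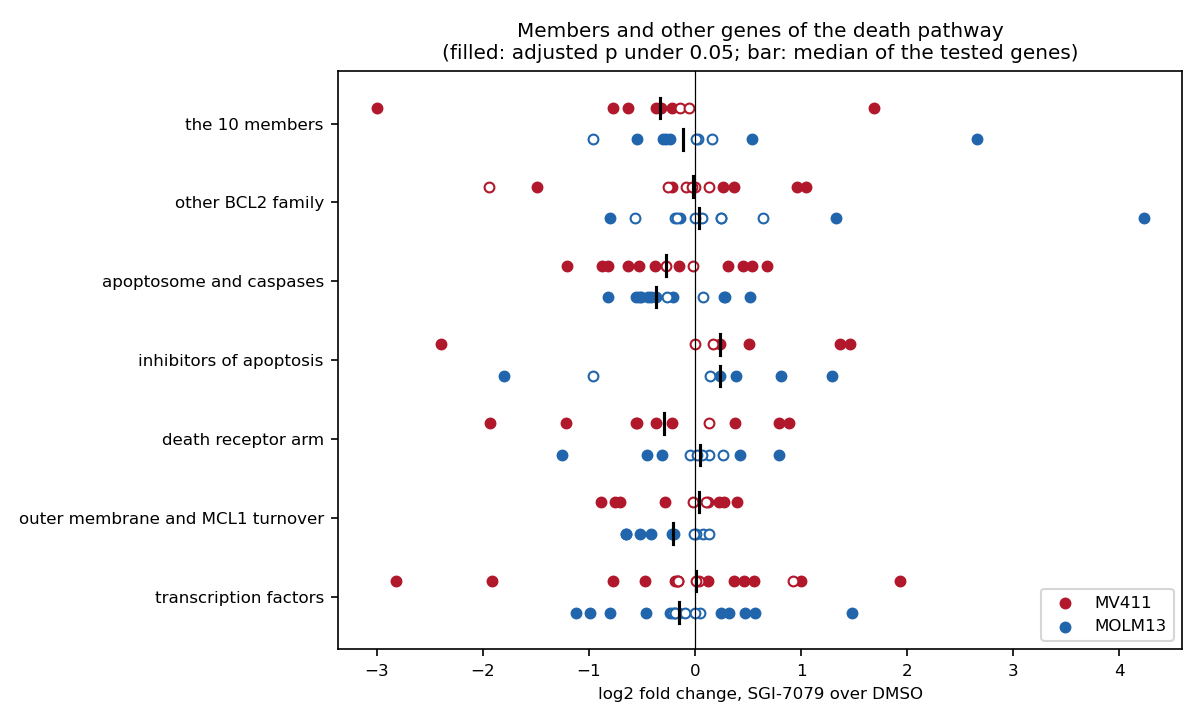
Log2 fold change of SGI-7079 against DMSO for each tested gene of the 6 pathway lists and the 10 BCL2 family genes (a point per gene, filled where it passed the test) in MV411 and MOLM13, with the list median as a bar. The medians of the 6 lists run between -0.3 and 0.24 in MV411 and between -0.37 and 0.24 in MOLM13.

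Of 10 death receptor genes tested, 3 rose and 6 fell in MV411, where 51.5% of all genes were called, and 2 rose and 3 fell in MOLM13, where 46.8% were, with medians of -0.3 and 0.04. TNF fell, at -1.93 ± 0.07 in MV411 and -1.25 ± 0.06 in MOLM13, and CFLAR, which encodes the caspase-8 inhibitor FLIP, rose by 0.79 ± 0.05 in each. FAS, a death receptor, fell, at -1.22 ± 0.12 in MV411, and in MOLM13 it was at -0.05 ± 0.11 (adjusted p = 0.753, edgeR). TNFRSF10B, a receptor for the ligand TRAIL, fell in MV411, at -0.37 ± 0.05, and rose by 0.42 ± 0.04 in MOLM13, and its change differed between the lines, at -0.79 ± 0.06 (adjusted p = 1.82e-06, edgeR's interaction test). Of 10 genes of the outer membrane and of MCL1 turnover, 4 rose and 4 fell in MV411 and 6 fell in MOLM13, with medians of 0.04 and -0.21. The channel genes VDAC1 and VDAC3 fell, at -0.89 ± 0.04 and -0.71 ± 0.04 in MV411, and at -0.65 ± 0.04 and -0.52 ± 0.04 in MOLM13. MTCH2, a membrane protein insertase, fell, at -0.75 ± 0.04 in MV411 and -0.65 ± 0.04 in MOLM13. Of 17 transcription factors known to act on the family, 6 rose and 6 fell in MV411 and 5 rose and 7 fell in MOLM13, with medians of 0.01 and -0.15. E2F1 fell, at -2.82 ± 0.06 in MV411 and -0.99 ± 0.06 in MOLM13, and MYC also fell, at -0.77 ± 0.03 and -0.19 ± 0.03. The forkhead factor FOXO3 rose by 0.37 ± 0.06 in MV411 and 0.25 ± 0.05 in MOLM13, and STAT5A by 1.00 ± 0.04 and 0.57 ± 0.04. ATF4 fell, at -0.80 ± 0.04 in MOLM13 and was at 0.01 ± 0.04 in MV411 (adjusted p = 0.855). The medians over all genes were 0.114 in MV411 and 0.054 in MOLM13.

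For each family gene the most similar other gene was found by Pearson's r of log2 CPM over the 12 libraries after each line's mean was removed, among 10332 protein-coding genes averaging at least 5 CPM. These points share libraries and the treatment contrast, so the values describe likeness and carry no test. The nearest gene to BMF was PCYOX1L (r = 0.999), to MCL1 LST1 (0.993), to BBC3 S100A4 (0.991), to PMAIP1 CLPTM1 (0.99) and to BAK1 CABLES2 (0.985). BCL2 was nearest to ARHGAP35 (0.978), BAX to EBPL (0.968), BCL2A1 to QDPR (0.957), BCL2L1 to CPT2 (0.956) and BCL2L11 to UBE2Z (0.951).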

How the data were processed

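Raw counts per gene and FPKM values, both deposited by the authors in 1 table, were used for 12 libraries. Per the labels' protocols, poly(A) RNA was made into strand-marked libraries and sequenced in pairs. Per the submitters' processing notes, the build was hg38 and the tools include HISAT2 2.2.1, cutadapt 1.9 and StringTie 2.1.6, edgeR and DESeq2 are also named, and the design text names featureCounts for quantification. The strand setting and the handling of multi-mapped reads are not given in the sources used here. The FPKM that the authors deposited correspond to 1 fixed length per gene for 9 of the 10 genes, BCL2A1 being too sparse to tell.

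Genes were filtered by filterByExpr (minimum count 10), scaled by TMM and fitted with edgeR 4.0.16 (R 4.3.3) as quasi-likelihood models over all 4 groups; p-values were adjusted over 21438 genes. CPM are TMM-scaled. Of 36041 gene IDs, 35731 were in GENCODE 44. Alternatives used DESeq2 1.42.0, limma 3.58.1 on log2(FPKM + 1) or log2(FPKM + 0.1), upper-quartile scaling, no filter, a replicate block and each library left out; canonical transcript length, another base library for TMM, and each library left out with genes and scaling kept were added after seeing the data. Tests were tried on simulated data in which few genes changed, evenly in both directions and in MV411 with SGI-7079 alone. That trial does not check the scaling where many genes change. Listed genes are named as the first 3 by adjusted p in each line, except for an item not reported here; others were chosen after their values were seen. Members and lists were chosen with earlier results of these data known.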

Additional observations from a re-analysis of the deposited data

Results flagged for a closer look

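The response to SGI-7079 differed between the lines by edgeR's interaction test for 5 of the 10 genes of the family, where 20.7% of all genes differed, each given as the log2 change in MV411 minus that in MOLM13. BMF rose by a smaller factor in MV411, with a difference of -0.97. Its mean went from 66.4 CPM with DMSO to 215 CPM in MV411, and from 15.5 to 98.0 CPM in MOLM13. BAX, which fell in MV411, had a difference of -0.80. BBC3, which rose in MOLM13, had -0.59. BCL2, which fell in MV411, had -0.40. BCL2L11, which fell in MV411, had -0.23, and this difference missed the threshold in 7 of 12 fits that left out 1 library with the scaling kept.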

How the results depend on the processing

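Over all alternatives, 1255 values kept their direction and side of the threshold, 21 passed it, 22 lost it and 12 turned sign. For BBC3 in MV411 the sign turned to 0.04 under upper-quartile scaling, 0.04 on log2(FPKM + 1) and 0.05 on log2(FPKM + 0.1). With 1 library left out, BCL2 in MOLM13 was lowest without MOLM13 DMSO replicate 1, at -0.0021 with scaling recomputed (highest 0.07) and -0.0072 with scaling kept. BCL2L11 in MOLM13 ran up to 0.06; without MOLM13 DMSO replicate 3 or SGI-7079 replicate 1 it was -0.01 recomputed and -0.02 kept, and without SGI-7079 replicate 3 it was -0.0007 and -0.0081. The BCL2A1 difference between lines turned to 0.14 on log2(FPKM + 1). None of these values was called in the analysis reported, and the cause was not tested. In MV411 the family genes that fell were 6 under upper-quartile scaling, 5 on log2(FPKM + 1) and 6 on log2(FPKM + 0.1), against 7; those that rose in MOLM13 were 4 under each, against 2. Upper-quartile scaling raised the median of all genes by 0.096 in MV411 and 0.103 in MOLM13. Recomputed TMM took MV411 DMSO replicate 3 as its base in 9 of 12 fits; that base alone put the median of all genes at 0.042 in MV411, against 0.114, and at -0.092 for the difference between lines, against -0.014. Leaving out 1 library gave 7 to 8 falls in MV411 (7 in each fit with scaling kept), 2 to 3 rises and 3 to 4 falls in MOLM13, and 4 to 6 lower differences (4 to 5 kept). With scaling recomputed, 1 library left out brought past edgeR's threshold BCL2L1 in MV411 (-0.29 and -0.21) and the differences of MCL1 (-0.18), PMAIP1 (-0.39) and BAK1 (-0.20), none of which passed with scaling kept; the BCL2L1 difference reached down to 0.0055 and BBC3 in MV411 to -0.18. Over all genes, 1898 differences were higher and 2530 lower in MV411, against 1261 and 2810 without the filter, 3172 and 2617 on log2(FPKM + 1), 1390 and 3446 with the MV411 base, and 1200 to 1789 higher with 1 library left out. With canonical transcript length BMF stood at place 3 in MV411 with SGI-7079 and place 5 in MOLM13 with SGI-7079. In MV411 SGI-7079, MV411 DMSO, MOLM13 SGI-7079 and MOLM13 DMSO, that length gave MCL1 62.3, 62.5, 72 and 74.3% and BCL2 26.2, 27, 20.9 and 17.5% of the guardian sum. Libraries of the same replicate number had correlations of deviations of 0.003 to 0.041, against -0.0465 to 0.0298 for unlike numbers. These small values show little pairing but cannot exclude it. With the replicate block, 1 gene rose and 7 fell in MV411, 2 rose and 4 fell in MOLM13, and 4 differences were lower; the one lost was BCL2L11, at -0.23 (adjusted p = 0.0702). Low counts limit BCL2A1.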
